A study of Mus musculus with 6 samples.

Results

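The broad accessible regions described here are the rows of 1200 bp or more on chromosomes 1 to 19 in the Smc3 het peak list. They were chosen on the width in that list, so the width and its surplus over narrower rows describe the choice and are no finding. There were 1074 such regions among 45534 Smc3 het rows on these chromosomes, which is 2.36% of the rows and 9.06% of their base pairs. Together the lists of both genotypes held 62063 rows. The median width was 1400 bp and the widest region had 7622 bp. Of the 1074 regions, 536 were under 1400 bp, 139 had 2000 bp or more and 42 had 3000 bp or more.

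The study profiled lineage-depleted mouse bone marrow, labelled HSPC (hematopoietic stem and progenitor cells), by bulk ATAC-seq. The groups were inv(16);Smc3 D/+ (Smc3 het, 3 libraries) and inv(16);Smc3 +/+ (Smc3 wt, 3 libraries). Both carry inv(16), and for both the labels give viral transduction and tamoxifen induction of Cre, so the data hold no group without these. The labels do not say what the letter D stands for, which promoter drives Cre, the age of the mice or whether animals were pooled. The files give a single peak list per genotype. Without values of single libraries the spread between replicates is unknown, and no test or p-value is given.

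In ATAC-seq the Tn5 transposase inserts adapters into DNA that nucleosomes do not shield, and a row of a peak list is a stretch where such fragments pile up above the background. Accessible stretches of housekeeping genes usually sit at CpG islands, which are rich in CG dinucleotides and keep a nucleosome-depleted start between positioned nucleosomes. A wide row can span a promoter with its flanking nucleosomes, a divergent pair of promoters or a group of neighbouring enhancers, and it can also mark a repeat whose reads pile up over its whole length. Smc3 is a subunit of the cohesin ring, which extrudes and holds chromatin loops. The inversion joins Cbfb, the partner of the blood transcription factor Runx1, to the myosin gene Myh11.

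None of the 10 widest regions covered a gene start. The sequences printed are therefore the 250 bases before the start of 6 genes whose start lay in a region that was wide or much wider than in Smc3 wt, picked after their values were seen. They come from RefSeq on GRCm38.p6, the assembly of mm10, and run 5′ to 3′ on the strand of the gene. Capitals mark matches on either strand to 9 motifs. They are GGGCGG of SP factors, CCAAT of NF-Y, CCGGAAG of ETS factors, TGACGTCA of CREB, CACGTG of E-box factors, TGANTCA of AP-1, TGTGGTT of Runx factors, TATAAA of the TATA-binding protein and CCATATTAG of the serum response factor. Neighbouring matches can run together, as GGGCGG and TGACGTCA do in Maff.
Jun, chr4:95052223-95052472, minus strand: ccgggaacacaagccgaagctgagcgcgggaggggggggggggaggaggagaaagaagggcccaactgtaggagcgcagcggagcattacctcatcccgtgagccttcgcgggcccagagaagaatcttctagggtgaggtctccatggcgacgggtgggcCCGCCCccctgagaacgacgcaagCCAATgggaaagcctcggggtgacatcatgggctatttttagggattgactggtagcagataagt
H3c14, chr3:96246435-96246684, plus strand: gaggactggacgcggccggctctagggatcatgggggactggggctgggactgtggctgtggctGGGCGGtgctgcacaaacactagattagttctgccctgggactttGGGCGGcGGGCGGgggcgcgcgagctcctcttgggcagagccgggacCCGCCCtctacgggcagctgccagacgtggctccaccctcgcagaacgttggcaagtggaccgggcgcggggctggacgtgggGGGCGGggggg
Ddit3, chr10:127290543-127290792, plus strand: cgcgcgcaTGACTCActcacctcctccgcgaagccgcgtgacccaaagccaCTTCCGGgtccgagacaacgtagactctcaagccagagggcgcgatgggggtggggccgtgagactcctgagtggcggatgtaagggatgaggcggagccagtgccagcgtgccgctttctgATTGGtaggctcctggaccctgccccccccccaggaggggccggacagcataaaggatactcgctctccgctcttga
Smarca5, chr8:80739460-80739709, minus strand: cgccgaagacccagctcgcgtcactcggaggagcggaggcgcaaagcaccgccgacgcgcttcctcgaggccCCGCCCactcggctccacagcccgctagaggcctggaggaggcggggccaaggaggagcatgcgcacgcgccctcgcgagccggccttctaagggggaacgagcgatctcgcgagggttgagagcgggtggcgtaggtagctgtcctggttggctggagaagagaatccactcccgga
Runx1, chr16:92697330-92697579, minus strand: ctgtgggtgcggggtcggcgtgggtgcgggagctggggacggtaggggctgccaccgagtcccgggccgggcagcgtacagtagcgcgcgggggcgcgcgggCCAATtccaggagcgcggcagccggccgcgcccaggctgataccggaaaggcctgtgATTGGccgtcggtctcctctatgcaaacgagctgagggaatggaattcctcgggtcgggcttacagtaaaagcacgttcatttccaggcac
Maff, chr15:79347270-79347519, plus strand: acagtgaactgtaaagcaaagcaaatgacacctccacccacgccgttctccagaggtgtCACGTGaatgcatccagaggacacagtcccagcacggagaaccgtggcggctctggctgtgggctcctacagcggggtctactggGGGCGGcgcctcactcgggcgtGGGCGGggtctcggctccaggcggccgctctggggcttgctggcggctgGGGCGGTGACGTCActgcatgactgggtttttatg
These stretches had 61.2% (Jun), 71.2% (H3c14), 64.8% (Ddit3), 69.2% (Smarca5), 67.6% (Runx1) and 64.0% (Maff) G and C. H3c14 held 5 matches to GGGCGG, the box of SP and Kruppel-like factors, and Maff held 3. Maff also held TGACGTCA, the cyclic AMP response element, and CACGTG, an E-box. Ddit3 held TGACTCA, the AP-1 site, and CCGGAAG, an ETS site, on the minus strand. Runx1 held CCAAT, the site of NF-Y, at 2 places. A match is a description of the letters and not a bound site.

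Most broad regions also had an accessible stretch in Smc3 wt. Of the 1074 regions, 971 (90.4%, exact Clopper-Pearson 95% interval 88.5 to 92.1) overlapped a Smc3 wt row by at least 1 bp. The share was 28.9% among the 44460 narrower Smc3 het rows and 30.3% among all Smc3 het rows on these chromosomes. It rose with width and was 1.98% under 200 bp, 86.1% at 800 to 999 bp and 87.7% at 1000 to 1199 bp. The rows just below the threshold were thus shared nearly as often as the broad regions. These intervals cover counting error only, since read depth is unknown and fragments of a region are not independent. With 1 list per genotype, a change in accessibility per cell, a change in the mix of cells and a difference in depth or in peak calling cannot be told apart.

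The 971 shared regions covered a median of 928 bp in Smc3 wt rows. The Smc3 het width over the summed width of the overlapping Smc3 wt rows had a median of 1.53, with an exact interval of the median of 1.48 to 1.57. Over all 13798 Smc3 het rows with a Smc3 wt row the median ratio was 1.36. The Smc3 het row was the wider one in 952 of the 971 (98.0%) and in 89.1% of all overlapping rows. It was at least 1.5 times as wide in 508 (52.3%, 49.1 to 55.5), against 37.6% of all overlapping rows, and at least 2 times as wide in 297 (30.6%). Choosing regions for a large Smc3 het width raises these values by itself.

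The choice was therefore also made from the other side. The Smc3 wt list held 240 rows of 1200 bp or more among 14343, which is 1.67% of its rows and 5.72% of its base pairs. All 240 overlapped a Smc3 het row, and 208 of them overlapped a broad one. The Smc3 het rows at these 240 places were 1.07 times as wide in the median, and 80.4% were wider in Smc3 het, while 46 were wider in Smc3 wt. Thus the surplus width was small at places chosen in Smc3 wt, although it had the same direction. Choosing rows for a large Smc3 wt width lowers this surplus by itself, so neither choice gives its size free of the selection. Among the 1074 broad Smc3 het regions, 246 had Smc3 wt rows that summed to 1200 bp or more.

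Most shared regions, 800 of the 971, lay over a single Smc3 wt row. The other 171 (17.6%, 15.3 to 20.2) overlapped 2 or more, made up of 150 with 2 rows, 16 with 3, 4 with 4 and 1 with 5. A wider row can overlap more rows by its length alone. The narrowest row in each list was 138 bp in Smc3 het, against 208 bp in Smc3 wt. The commonest background at the summit, recovered from the authors' fold and p-value in units of pileup, was 10.6 in Smc3 het, against 8.65 in Smc3 wt. The part of these list-wide differences in the width ratios was not tested.

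**Figure D1:**
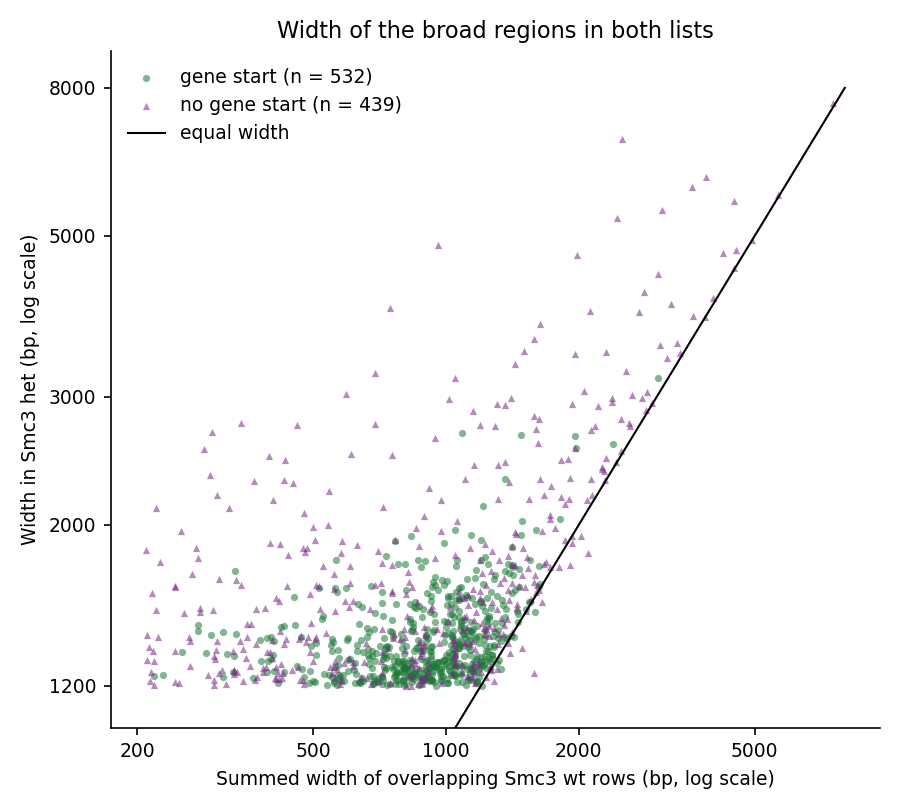
Width of each broad region in Smc3 het (vertical axis, bp, log scale) against the summed width of its overlapping Smc3 wt rows (horizontal axis, bp, log scale) for the 971 regions with such a row. Green circles cover a gene start (532), purple triangles do not (439), and the line marks equal width. Of the 971 points, 952 lie above the line, in regions chosen for their Smc3 het width, and the widest triangles lie both on the line and far above it.

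At the threshold itself the values were continuous. Just inside it were 3 regions with 1200 bp each. One covered the start of Nr1d2, a nuclear receptor of the circadian clock (1205 bp in Smc3 wt). The others covered no start. They had their summits inside Rbbp8, a DNA-end resection factor (814 bp in Smc3 wt), and inside Sema3c, a semaphorin, with no Smc3 wt row. Just outside were rows at Upf2, a factor of nonsense-mediated decay (1199 bp, against 998 bp in Smc3 wt), at Setd2, a histone methyltransferase (1199 bp, against 391 bp), and 272237 bp from Defb41 (1198 bp, against 369 bp). Of the members, 536 lay within 200 bp of the threshold.

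Gene starts were covered by 538 of the 1074 broad regions (50.1%, 47.1 to 53.1). The share was 19.2% among narrower Smc3 het rows and 19.9% among all of them. Among the narrower rows that had a Smc3 wt row it was 51.6% (50.7 to 52.5), near the share of all broad regions. Of the 971 broad regions with a Smc3 wt row, 532 covered a start. A start lay within 1000 bp of 53.2% (50.1 to 56.2) of all broad regions. For narrower rows with a Smc3 wt row that share was higher, at 59.2% (58.4 to 60.1). In Smc3 wt 35.4% (29.4 to 41.8) of broad rows and 47.1% of narrower rows covered a start. The starts came from a RefSeq table of promoters. For 4103 protein-coding genes missing from it, either end of the gene was taken, since their strand was not known, and 69 of the 538 regions count only through such an end. Of the genes described further on, Pde3b, Snx27, Egr1, Zfp36l2, Cebpd, Hspa9 and Kdm5a were placed by such an end, which may not be the start.

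The share with a gene start was not highest in the widest regions. It climbed over the width classes of the Smc3 het list, with 2.31% under 200 bp, 27.0% at 400 to 599 bp and 66.2% (63.6 to 68.9) at 1000 to 1199 bp. Within the broad regions it was 62.1% (57.9 to 66.2) at 1200 to 1399 bp, 58.7% at 1400 to 1599 bp, 35.6% (28.5 to 43.2) at 1600 to 1999 bp, 10.3% (5.06 to 18.1) at 2000 to 2999 bp and 2.38% (0.0603 to 12.6, 1 of 42) at 3000 bp or more. The Smc3 wt list had the same shape at smaller widths. There the share was highest at 800 to 999 bp, with 74.7%, and was 52.6% at 1200 to 1399 bp, 14.7% at 1600 to 1999 bp and 7.14% (1 of 14) at 3000 bp or more. The median of the authors' fold over background followed the same course, with 5.66 at 800 to 999 bp and 3.68 at 3000 bp or more in Smc3 het.

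**Figure D2:**
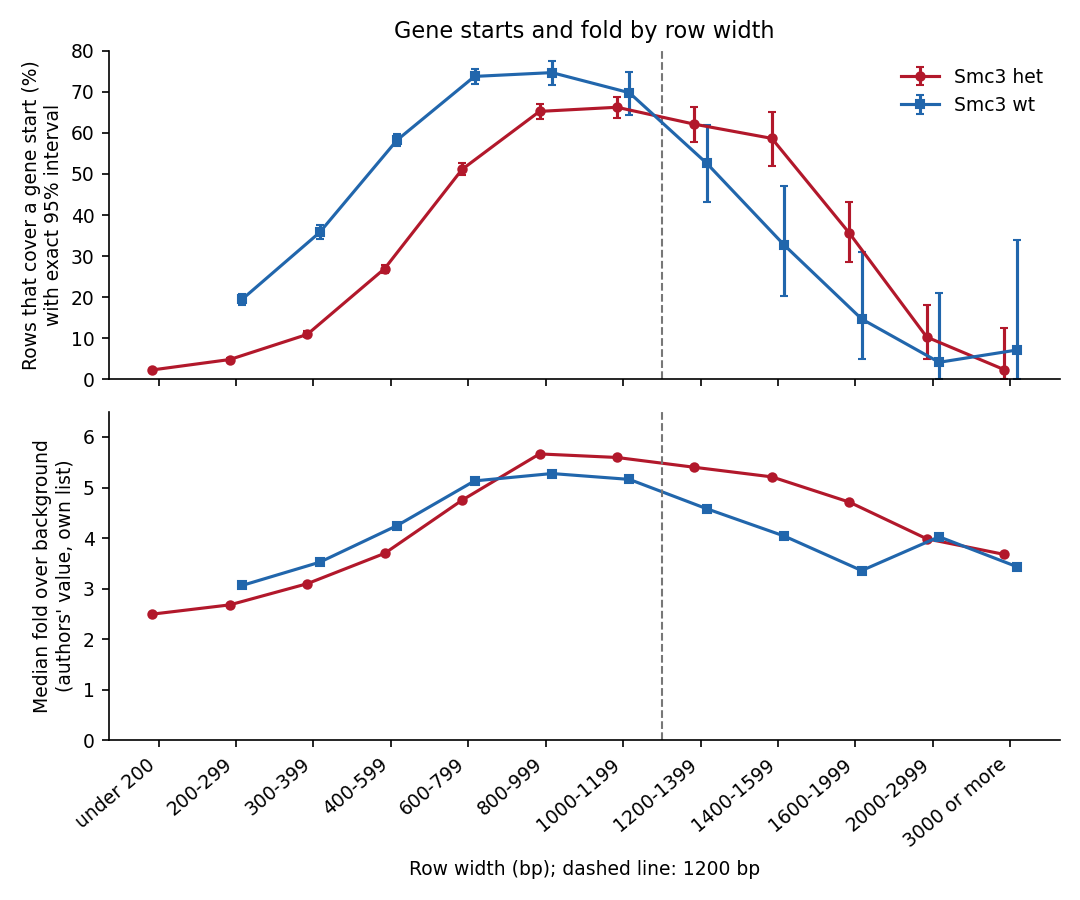
Share of rows that cover a gene start with its exact 95% interval (top) and median fold over background as the authors' peak caller gave it (bottom), by row width in bp. Red circles are Smc3 het, blue squares are Smc3 wt, and the dashed line marks 1200 bp. In Smc3 het both curves are highest between 800 and 1199 bp, and the share at a gene start drops to 2.38% at 3000 bp or more.

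Regions with and without a gene start differed in more than their place. Those with a start had a median width of 1340.5 bp, a median fold of 6.14 and a median -log10 q of 45.6, against 1532 bp, 4.04 and 15.6 in those without. The summit pileup, which is the peak caller's signal height at the summit as recovered from fold and p-value, had a median of 104 at gene starts and 55 elsewhere. A Smc3 wt row was present for 532 of the 538 (98.9%) with a start and 439 of the 536 (81.9%, 78.4 to 85.1) without. The median width ratio over Smc3 wt was 1.48 (1.43 to 1.53) with a start and 1.73 (1.54 to 1.91) without. Regions without a start lay over 2 or more Smc3 wt rows in 24.8% of shared cases, against 11.7% of those with one. Of the 536 without a start, 259 (48.3%) had their summit inside a protein-coding gene and 33 lay within 1000 bp of a start.

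The median local background was 11.7 (11.3 to 12.3) in regions without a gene start, against 15.8 (15.4 to 16.4) in those with one. High values were nonetheless more frequent in regions without a start. A background of at least 21.2, 2 times the commonest value, was found in 93 of the 536 (17.4%, 14.2 to 20.8), in 54 of the 538 with a start (10.04%) and in 3.05% of narrower rows. The 93 regions had a median width of 1762 bp and were 1.10 times (1.07 to 1.20) as wide as in Smc3 wt. The other 443 had a median width of 1509 bp, a median fold of 4.08 and a ratio of 2.09 (1.83 to 2.31) for the 347 with a Smc3 wt row. The median ratio was thus lower in the high-background regions, but 19 of the 92 with a Smc3 wt row were at least 1.5 times as wide in Smc3 het.

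**Figure D3:**
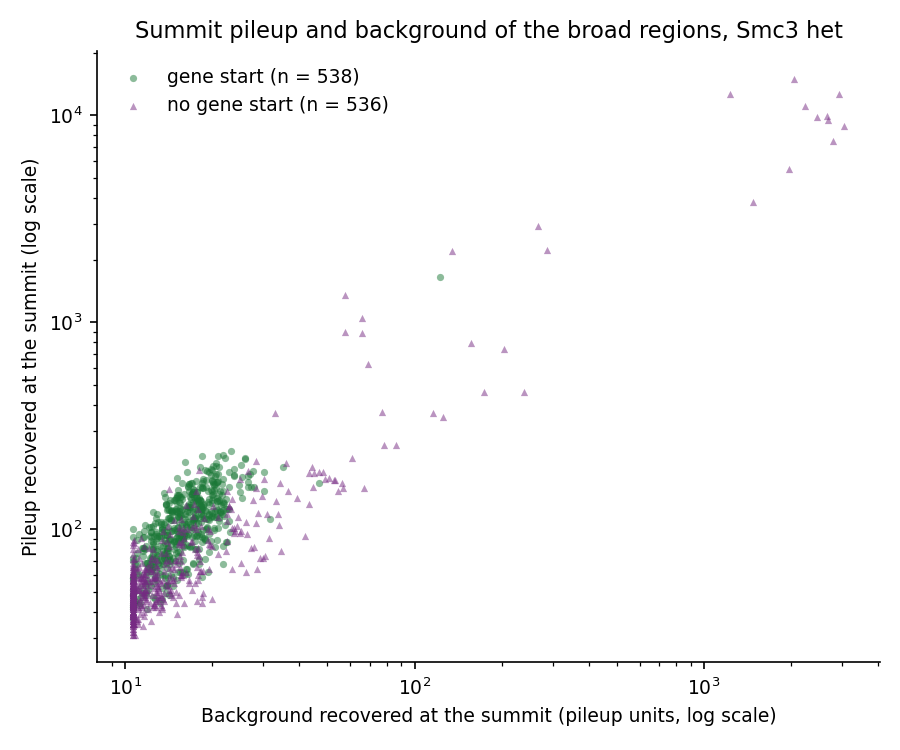
Pileup recovered at the summit (vertical axis, log scale) against the background recovered there (horizontal axis, pileup units, log scale) for the 1074 broad regions in Smc3 het. Green circles cover a gene start (538), purple triangles do not (536). Apart from 1 circle, all points with a background above 100 are triangles, and the highest has a pileup of 15066.

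The 10 widest regions ranged from equal width in both lists to a row split in Smc3 wt. The widest of all (chr9:3011548-3019169, 7622 bp) was 7542 bp wide in Smc3 wt, and its pileup of 9471 stood over a background of 2674. It belonged to a group of 8 broad regions on chromosome 9 between 3000031 and 3038261, each 2303 to 7622 bp wide and with a median background of 2668. The nearest protein-coding gene, Alkbh8, a tRNA methyltransferase, lay at least 300344 bp away from them. In each of these 8 the width ratio lay between 1.00 and 1.07. A region of 5699 bp on chromosome 17 (39843050 to 39848748) overlapped Rn18s-rs5, an 18S ribosomal RNA pseudogene, and the lncRNA AY036118. It was 5656 bp wide in Smc3 wt and had a background of 1473.

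The other wide regions were split in Smc3 wt, at high as well as lower background. At 15435 bp and 59263 bp from Gm21119, regions of 6031 bp and 5595 bp with a background of 56.2 and 54.2 covered 5 rows of 3887 bp and 3 rows of 4491 bp. Inside Pfkp, the platelet phosphofructokinase, a region of 6799 bp (chr13:6605981-6612779) covered 4 Smc3 wt rows that summed to 2503 bp. Inside Akap6, which encodes an anchor of protein kinase A, 5433 bp covered 4 rows of 3081 bp. At 24228 bp from Smurf2, a ubiquitin ligase, 5842 bp covered 4 rows of 3602 bp. Inside Klhdc4, 5300 bp with a background of 22.2 covered 3 rows of 2434 bp. At 153843 bp from Nup35, a nuclear pore gene, 4858 bp covered 3 rows of 958 bp, a ratio of 5.07. In the last 5 of these regions the -log10 q was 9.24 to 17.6, below the median of the broad regions, which was 27.4.

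Some broad regions lay close together. Within 10000 bp of another lay 73 of the 1074, and 6 groups held 3 or more. No share for other rows or for random placement is given here, so the values do not say whether this is many or few. After the group on chromosome 9, the largest was one of 6 regions nearest to Apba2, a neuronal adaptor (chr7:64466944-64496020), with a median background of 28.5. These 6 were 1.61 to 3.95 times as wide in Smc3 het as in Smc3 wt. None of the 6 groups held a gene start.

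The largest width ratios belonged to regions outside genes, and each had a single narrow Smc3 wt row. A region 369897 bp from Dok5, a docking protein, had 2108 bp in Smc3 het, against 221 bp in Smc3 wt, a ratio of 9.54. A region 185240 bp from Map3k7, a kinase of inflammatory signalling, had 2681 bp and 295 bp, a ratio of 9.09. One 39252 bp from Orc5, a subunit of the origin recognition complex, had 2547 bp and 284 bp, a ratio of 8.97. Regions 691213 bp from Lrfn5 (1849 bp and 209 bp, ratio 8.85) and 14020 bp from Gm2128 (2758 bp and 344 bp, ratio 8.02) followed. The Smc3 wt rows of these 5 regions had a -log10 q of 1.76 to 3.49 in their own list, where narrower rows had a median of 10.2. The smallest ratios were 0.789 and 0.872, at 2 regions of chromosome 18 nearest to the vomeronasal receptor gene Vmn1r238. Ratios of 0.911 at 252952 bp from Hlx, 0.923 at 3370 bp from Sfi1 and 0.949 at 23875 bp from Gm40469 followed. The background was high at the Vmn1r238 region with a ratio of 0.872 (65.8) and at the Sfi1 (115.8) and Gm40469 (39.3) regions. It was 18.3 at the region with a ratio of 0.789 and 13.4 at the Hlx region.

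Without any Smc3 wt row were 103 regions. The most significant lay 190347 bp from Asap2 (1550 bp, -log10 q of 20.4) and inside Ptprn2 (1249 bp, 18.4). Next came regions 226123 bp from Hrh4 (2209 bp, 18.1) and 59123 bp from Lipg (1248 bp, 18). Only 6 of the 103 covered a gene start or an end taken for one. These were at Pde3b, a phosphodiesterase (2001 bp), Morrbid, a lncRNA of myeloid cell survival (1484 bp), Sult2b1, a sulfotransferase (1433 bp), Slc3a2, the heavy chain of amino acid transporters (1297 bp), Clip1, a microtubule plus-end protein (1250 bp), and the lncRNA Gm42309 (1229 bp). Their -log10 q ranged from 7.51 to 16.9.

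Around gene starts, broad regions were longer on the downstream side. The extent was measured at 308 regions that covered the start of a single gene of known strand. They reached a median of 547 bp upstream (512 to 582) and 808.5 bp downstream (767 to 848), and 208 of the 308 (67.5%) reached further downstream. The summit lay at a median of 70 bp upstream of the start. At 264 of them a Smc3 wt row also covered the start, and the reach of that row alone was taken. There the median reach upstream was 550.5 bp in Smc3 het, against 393.5 bp in Smc3 wt, and downstream it was 808.5 bp in Smc3 het, against 413 bp in Smc3 wt. The Smc3 het row was longer on both sides in 237 of the 264. The median surplus was 110.5 bp upstream (92 to 139) and 264 bp downstream (223 to 322), and it was larger downstream in 177 regions. The choice of broad Smc3 het rows favours such a surplus.

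**Figure D4:**
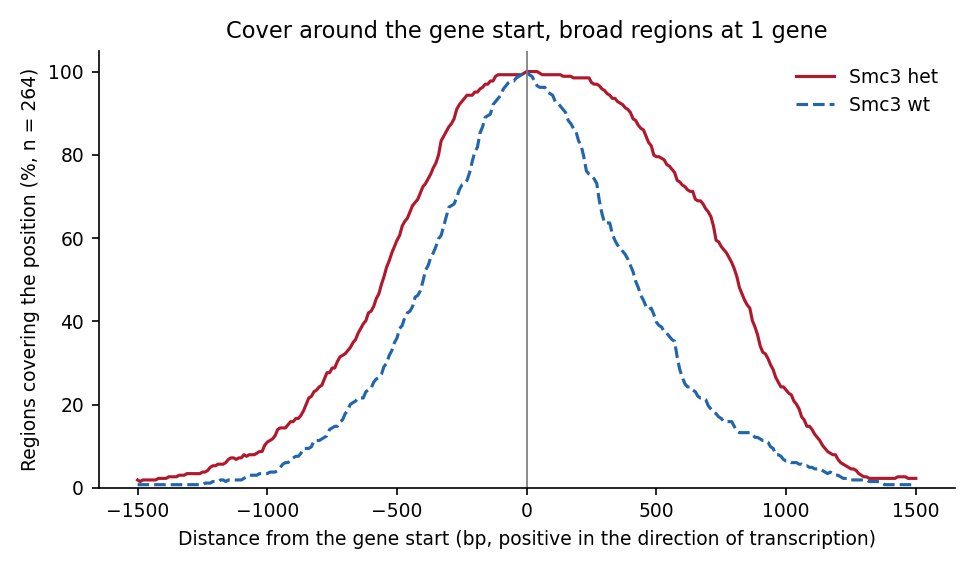
Share of regions with a row of the list at each position (vertical axis, %) by distance from the gene start in bp, positive in the direction of transcription, for 264 broad regions at the start of a single gene. The solid red line is Smc3 het and the dashed blue line Smc3 wt. At 500 bp downstream 79.5% of regions were covered in Smc3 het, against 39.8% in Smc3 wt, and at 500 bp upstream 59.5% were covered in Smc3 het, against 36.0%.

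Many broad regions spanned a pair of genes read in opposite directions. Of the 454 regions whose starts all had a known strand, 146 (32.2%, 27.9 to 36.7) covered the starts of 2 or more genes, against 15% of the 7205 narrower rows that covered such starts. A wider row can hold more starts by its length alone. Both strands were represented in 140 of the 146 (95.9%). The share was about the same, 1052 of 1081 (97.3%), in narrower rows with 2 or more genes. Of 137 broad regions with exactly 1 gene on each strand, 116 had their starts pointing apart, and the median distance between these starts was 213.5 bp. In the remaining 21 the genes overlapped at their starts. Examples are Hspd1 and Hspe1, the mitochondrial chaperonin and its co-chaperonin (1297 bp in Smc3 het, against 898 bp in Smc3 wt), and the histone pairs of chromosome 3 described further on.

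The share of genes with a start in a broad region varied between gene lists. A start in a broad region was found for 632 of 20560 protein-coding genes (3.07%). Over 10 lists of lineage and unrelated-tissue genes it was found for 1 of 132 genes (0.758%, 0.0192 to 4.15), and over the other 15 lists for 43 of 284 (15.1%, 11.2 to 19.8). Any Smc3 het row at the start, whatever its width, was found for 24 of the 132 (18.2%), 215 of the 284 (75.7%) and 45.2% of all protein-coding genes. Among genes with any row, broad ones made up 4.17%, 20% and 6.80% in these 3 sets. The lists were chosen with earlier results known, and genes were not drawn at random, so these shares are descriptions.

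**Figure D5:**
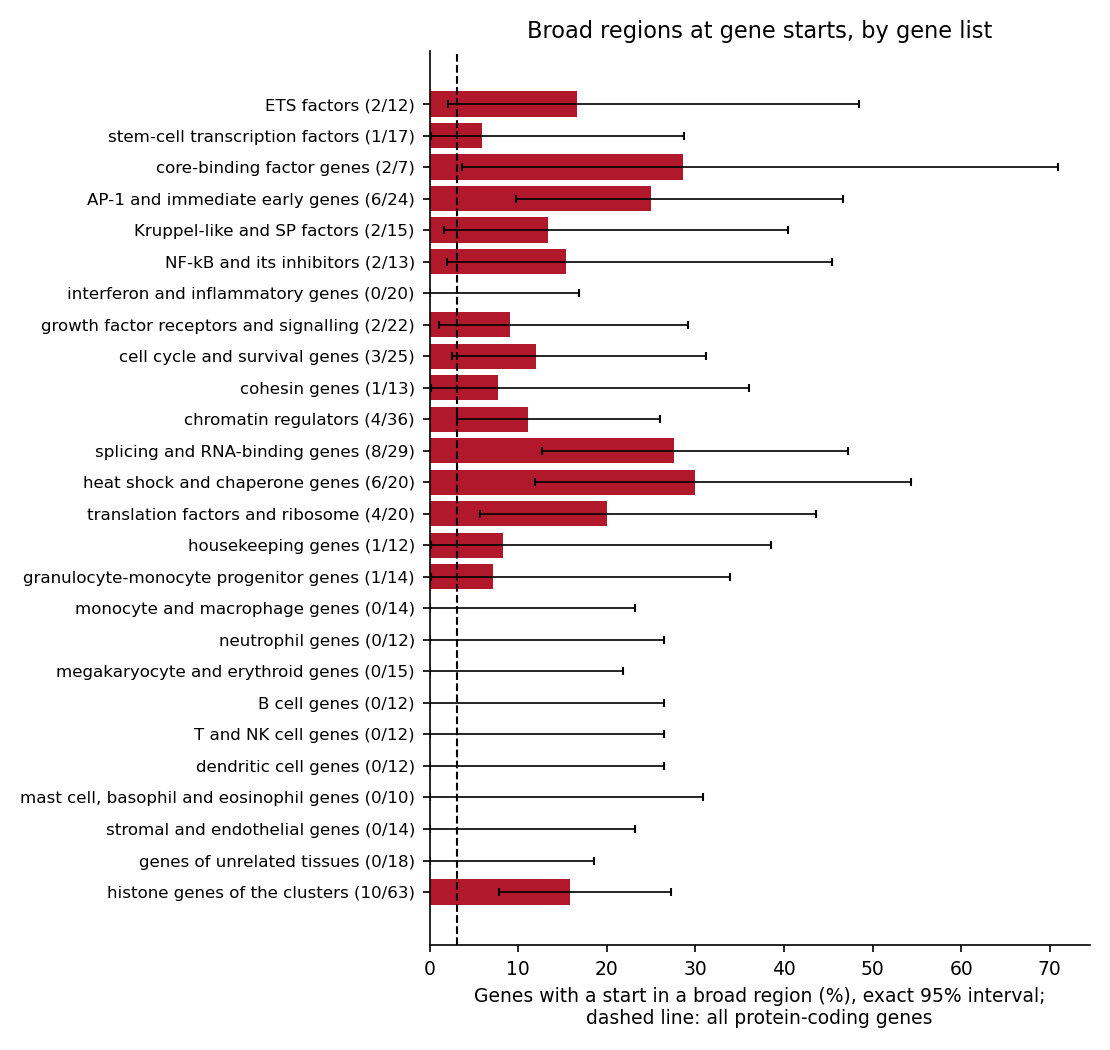
Percentage of the genes of each list whose start lies in a broad Smc3 het region (bars, with exact 95% intervals), with the number of such genes and of genes in the list in parentheses. The dashed line marks 3.07%, the share of all protein-coding genes. Bars reach 25% or more for core-binding factor, AP-1, splicing and heat shock genes, and 10 lists stand at 0.

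AP-1 and immediate early genes, which respond to signals within minutes, had a start in a broad region in 6 of 24 cases. Jun, an AP-1 subunit, had the widest region at any protein-coding start (chr4:95050785-95053460). It covered 2676 bp in Smc3 het, against 1090 bp in Smc3 wt, a ratio of 2.46, and also held the start of the lncRNA Junos, which runs antisense to Jun. Fosl2, another AP-1 subunit, had 1651 bp in Smc3 het, against 990 bp in Smc3 wt. Egr1, a zinc finger factor, had 1766 bp and 1385 bp, and Ier5 had 1766 bp and 810 bp in 2 rows. Zfp36l2, which destabilises mRNAs with AU-rich elements, had 1598 bp and 1113 bp. Maff, a small Maf factor, had 1238 bp in Smc3 het, against 218 bp in Smc3 wt, and its ratio of 5.68 was the highest among regions with a gene start. Near Btg2, 1221 bp lay 13988 bp from the gene, against 475 bp in Smc3 wt. Related stress genes outside the list were Ddit3, the CHOP factor of the unfolded protein response, and Nfe2l2, the NRF2 factor of the oxidative response. The region of Ddit3, whose summit lay in the span of its neighbour Mbd6, had 1900 bp in Smc3 het, against 766 bp in Smc3 wt, and that of Nfe2l2 had 1866 bp and 1415 bp.

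Of the core-binding factor genes and other factors of blood stem cells, Runx1 had the largest ratio. Runx1 had a broad region over its internal start (chr16:92697271-92698997), with 1727 bp in Smc3 het, against 333 bp in Smc3 wt, a ratio of 5.19. It ran almost wholly upstream of the start, which lies at 92697329 on the minus strand. The authors' fold there was 3.64 in Smc3 het, against 3.66 in Smc3 wt, each within its own list. Cbfb had 1388 bp and 642 bp, a ratio of 2.16. Together these made 2 of the 7 core-binding factor genes. Of 17 stem-cell transcription factors only Runx1 had its start covered. Tal1, another of them, had a region of 1220 bp, 3199 bp outside the gene, with no Smc3 wt row. Among 12 ETS factors, Elf2 (1646 bp in Smc3 het, against 675 bp in Smc3 wt) and Etv6 (1218 bp and 1173 bp) had a start covered. Erg, also an ETS factor, had 1623 bp inside the gene, against 1192 bp in Smc3 wt. Kit, the stem cell factor receptor, had 1209 bp over its start, against 417 bp in Smc3 wt, and Cish, an inhibitor of cytokine signalling, had 1326 bp, against 805 bp. These were 2 of 22 receptor and signalling genes. As for the HSPC label, 1 of the 17 stem-cell transcription factors had its start covered (5.88%, 0.149 to 28.7), against 3.07% of all protein-coding genes. A peak list gives no share of cell types, so the label was not tested here.

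Among 13 NF-kB genes, Nfkb2 (1485 bp in Smc3 het, against 830 bp in Smc3 wt) and Rel (1541 bp and 847 bp) had a broad region at the start. Klf11 (1401 bp and 1364 bp) and Sp4 (1299 bp and 1258 bp), which bind GC boxes, were the 2 of 15 Kruppel-like and SP factors, and both had nearly the same width in both lists. None of the 20 interferon and inflammatory genes had one (interval up to 16.8%). The same holds for the lists of monocyte, neutrophil, megakaryocyte and erythroid, B cell, T and NK cell, dendritic, mast cell, stromal and unrelated-tissue genes. The interval of each of these lists holds 3.07%, the share of all protein-coding genes. A count of 0 in lists this short does not set them apart from that share. The single gene of the lineage lists was Cebpd, a myeloid transcription factor of the granulocyte-monocyte list, with 1469 bp in Smc3 het, against 945 bp in Smc3 wt. Of 2 broad regions nearest to Fcgr3, an Fc receptor, one of 2262 bp had its summit in the gene and one of 1252 bp lay 14164 bp away. Their background was 44.3 and 53.0, and neither covered the start.

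Splicing and RNA-binding genes had 8 of 29 starts in a broad region, with a median width of 1505 bp and a median ratio of 1.55. Hnrnpa2b1, which packages pre-mRNA, had 1628 bp in Smc3 het, against 814 bp in Smc3 wt, a ratio of 2.00. Srsf7, a serine and arginine-rich splicing factor, had 1336 bp and 649 bp, and Rbm39 had 1300 bp and 691 bp. At the low end, Hnrnpdl had 1754 bp and 1627 bp, and Hnrnpa1, whose region also held the start of Cbx5, had 1466 bp and 1343 bp. Srsf2 (1544 bp and 1204 bp), Srsf5 (1430 bp and 940 bp) and Hnrnph1 (1593 bp and 1010 bp) lay between them.

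Heat shock and chaperone genes had 6 of 20 starts covered, with those of Hspd1 and Hspe1 in the same region. The share over all protein-coding genes was 3.07%. Hsp90b1, the chaperone of the endoplasmic reticulum, had 1587 bp in Smc3 het, against 1144 bp in Smc3 wt, and its fold of 8.50 was the highest of the list. Hspa9 had 1272 bp and 928 bp, Dnaja1 1282 bp and 1217 bp, and the ubiquitin gene Ubb 1272 bp and 1163 bp. Translation factors had 4 of 20, with Eef1a1, the elongation factor (1471 bp and 829 bp), Eif4a2, a helicase (1475 bp and 992 bp), Eif5 (1586 bp and 1087 bp) and Ncl, nucleolin (1244 bp and 929 bp). Of 12 housekeeping genes only Ppia had one (1323 bp and 1270 bp).

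Chromatin regulators had 4 of 36. Ezh2, the methyltransferase of Polycomb complex PRC2, had 1342 bp in Smc3 het, against 873 bp in Smc3 wt. Asxl2 (1348 bp and 1036 bp), the demethylase gene Kdm5a (1207 bp and 783 bp) and the acetyltransferase gene Ep300 (1529 bp and 1368 bp) were the others. Of 13 cohesin genes, only Ctcf, which halts cohesin on DNA, had its start covered (1275 bp and 832 bp). Smc3 itself had none. Nipbl, the cohesin loader, had a region of 1613 bp located 54074 bp outside the gene, against 216 bp in Smc3 wt, and Wapl, which releases cohesin, had 1203 bp inside the gene, against 299 bp. Cell cycle and survival genes had 3 of 25, namely Cdkn2c (1763 bp and 1409 bp), E2f1 (1609 bp and 1409 bp) and Bcl2l1 (1265 bp and 856 bp). Inside Cdk6, a cyclin-dependent kinase, a region of 1932 bp was narrower than its 2 Smc3 wt rows of 2019 bp.

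Histone genes form clusters without introns and were added as a list after their values had been seen. The starts of 10 of 63 lay in broad regions (15.9%, 7.88 to 27.3), against 3.07% of all protein-coding genes. Genes that share a region were counted singly, so these starts lay in fewer regions than 10. Besides the pairs below, H1f4 and H2bc6 shared a region, as did H3c1 and H4c1. H2ac18 and H3c14, a divergent pair on chromosome 3, shared 2021 bp in Smc3 het, against 1484 bp in Smc3 wt, and the neighbouring pair H2ac19 and H3c15 shared 1931 bp and 835 bp. These pairs are near-identical copies, so reads may have been split or dropped between them. Linker histone genes differed from each other. H1f5 had 1336 bp and 252 bp, a ratio of 5.30, while H1f2 had 1470 bp and 1459 bp, a ratio of 1.01.

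Large ratios were also found at an end of Snx27, a sorting nexin (1242 bp in Smc3 het, against 229 bp in Smc3 wt) and at the starts of Fbxl17, an F-box protein (1456 bp and 274 bp), Rasa3, a Ras GTPase activator (1408 bp and 294 bp), and Ampd2, an AMP deaminase (1330 bp and 286 bp). Smarca5, the ISWI remodelling enzyme, had 1810 bp and 731 bp, a ratio of 2.48, at a fold of 8.38. At the other end, Hspa4l (1266 bp and 1332 bp), Zfp668 (1515 bp and 1588 bp), Crebrf (1401 bp and 1426 bp), Tusc1 (1301 bp and 1316 bp) and Polr3g (1290 bp and 1303 bp) were slightly wider in Smc3 wt. Polr3g, a subunit of RNA polymerase III, had a fold of 9.59. The highest fold at a protein-coding start was 12.4, at Ptp4a1, a phosphatase, with 1317 bp and 1227 bp.

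The promoter windows of broad regions were rich in CpG. A window runs from 250 bases before to 50 after a RefSeq start of a protein-coding gene, and 656 windows had their start in a broad region, 8171 in a narrower Smc3 het row and 11258 in no row. The median observed over expected CpG was 0.867 in the broad group, 0.799 in the narrower group, 0.285 with no row and 0.586 over all 20085 windows. The median share of G and C was 66.0%, 61.3%, 51.3% and 57.0% in the same order. A CpG ratio of at least 0.6 was found in 90.1% of broad, 80.4% of narrower and 48.9% of all windows.

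Motif content followed the base composition in part. GGGCGG was present in 76.4% of broad, 67.5% of narrower and 47.0% of all windows. CCGGAAG, the ETS site, was present in 20.7%, 22.8% and 11.9%, and CCAAT in 40.7%, 41.0% and 38.1%. TGTGGTT, the site of Runx factors, was present in 1.68%, 3.61% and 4.77%, TGANTCA in 3.05%, 4.42% and 7.06%, and CACGTG in 12%, 11.1% and 7.89%. TGACGTCA was present in 2.59%, 3.97% and 2.30%. TATAAA stood between 40 and 15 bases before the start in 1.22% of broad, 0.808% of narrower and 2.58% of all windows, and anywhere in the window in 4.42%, 5.87% and 12.7%. CCATATTAG was found in 1 broad window and 16 of all windows. Matches were counted on both strands, except for TATAAA before the start, which was read on the strand of the gene. Relative to the narrower group, a larger share of broad windows held a GC box and a smaller share a Runx or AP-1 site. Neighbouring windows of a gene and windows of divergent pairs share bases, and no test was made.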

How the data were processed

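The submitters' processing notes name Bowtie2, mm10 and MACS2. Not given in the sources used here are their versions, read filters, a Tn5 shift and any pooling of libraries. Each genotype has 1 list of 10 columns, as deposited by the authors. Its deposited integer score, its fold (a ratio of summit over background), and its -log10 p and -log10 q belong to each peak within its own list. No read counts were used, so depth is unknown.

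Members and lists were chosen with earlier results of these data known. Width is end minus start. Overlap needed 1 bp. Pileup and background were solved from fold and p, and the p of 100% of rows was matched within 0.01. The calculation was tested on simulated data, and overlaps were checked against bedtools 2.31.1. Gene starts (31396 for 25748 genes) and spans came from RefSeq on GRCm38.p6, and 108 genes placed before position 3000000 were dropped. Intervals are exact (95%), with Python 3.11.15, numpy 2.4.6, pandas 2.3.3 and scipy 1.17.1.

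Named were the 10 widest regions, the 5 largest and 5 smallest width ratios, the 5 most significant without a Smc3 wt row, 3 on each side of the threshold and up to 3 genes per list. One region that this rule names is not reported here. Further list members, regions at gene starts by width, ratio and fold, Ddit3, Nfe2l2, Smarca5 and the histone list were named after their values were seen. Sequences were planned for the 10 widest regions, which cover no start, and were replaced.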

Additional observations from a re-analysis of the deposited data

Results flagged for a closer look

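Outside chromosomes 1 to 19 the Smc3 het list held 52 further rows of 1200 bp or more, which none of the comparisons above uses. Of these, 29 were on chromosome X, 1 on chromosome Y and 22 on unplaced scaffolds. The Smc3 wt list held 28 such rows, with 5 on X, 2 on Y and 21 on scaffolds. On scaffolds, rows of this width made up 6.75% of 326 Smc3 het rows and 15.3% of 137 Smc3 wt rows, against 2.36% and 1.67% on chromosomes 1 to 19. The sex of the animals is not in the labels used here, and the difference on X was not tested.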

How the results depend on the processing

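No paired analysis was possible because each genotype has 1 list, and leaving out libraries was not run for the same reason. The number of regions was 2336 at 1000 bp or more and 405 at 1500 bp or more, and stayed within 1.5 times of 1074 with chromosome X or with close rows joined. The share with a Smc3 wt row was 54.0% when 0.5 of the Smc3 het row had to be covered, 74.3% against Smc3 wt rows with a -log10 q of at least 5 and 56.0% at 10. The median width ratio was 1.69 over the largest Smc3 wt row, 1.41 over their span, 1.07 for regions chosen in Smc3 wt, 1.47 at 1000 bp and 1.61 without regions of high background. The share wider in Smc3 het was 96.8% over the span and 80.4% for regions chosen in Smc3 wt. The share at a gene start was 53.2% within 1000 bp, 58.8% at 1000 bp, 30.1% at 1500 bp and 43.7% with starts of the promoter table only. No direction was reversed. The alternatives without high background, for protein-coding starts and for the promoter table were chosen after seeing the data. The causes of these shifts were not tested. The lists hold no read counts, depth or values of single libraries, which limits every value above to a description of these lists.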
